A study of Mus musculus with 25 samples.

Results

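Collagens and the enzymes that modify them were followed in the mammillary neuroepithelium of Lhx5 mutant and wild-type mouse embryos. The genes were chosen by name. They are every gene whose symbol is Col, a number, a and a number, together with the lysyl hydroxylases Plod1, Plod2 and Plod3, the prolyl 4-hydroxylase alpha subunits P4ha1, P4ha2 and P4ha3, and the collagen chaperone gene Serpinh1. On the array, 49 of the 18820 named genes met this rule, 42 of them collagen genes of 26 collagen types and 7 of them enzyme or chaperone genes. Col7a1 and Col9a3 had only transcript clusters (the gene-level probe sets of this array) that also carry another gene's symbol, and were left out.

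The study asked which transcripts differ in the mutant at E10.5, before the mammillary body, a nucleus of the caudal hypothalamus, becomes smaller. All embryos were C57BL/6. The 13 mutant samples (labelled KO) carried on both chromosomes a floxed Lhx5 allele that keeps its exons, had not been recombined by Cre and acts as a hypomorph, and the 12 wild-type samples (WT) carried the unaltered gene. Each was hybridised to its own Affymetrix Mouse Gene 1.1 ST array and is called a biological replicate in the labels. Levels are given as log2 RMA values (background-corrected, normalised probe intensity), so that a difference of 1 is a doubling. They compare a gene between arrays and not 1 gene with another. The number of arrays limits the precision.

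A collagen molecule is built of alpha chains that wind around each other into a helix, and each alpha chain has its own gene. In the endoplasmic reticulum, prolyl 4-hydroxylases make the hydroxyproline that holds the helix together, lysyl hydroxylases make the hydroxylysine that carries sugars and crosslinks, and the chaperone encoded by Serpinh1 binds the folded procollagen. Fibrillar collagens form the fibres of mesenchyme, whereas type IV collagen is the network of the basement membrane that lies under the neuroepithelium and around its blood vessels. Collagen XXVI, the product of Col26a1 (formerly Emid2), is a small secreted collagen with an EMI domain.

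The stretch of genome in front of Plod3 is shown because Plod3 and its neighbours on chromosome 5 are described together further on. Plod3 and Znhit1 are transcribed away from each other, and 114 bases lie between the Plod3 start and the Znhit1 start used here (RefSeq, GRCm38.p6, chr5:136986905-136987018, plus strand). The capitals mark the only TAAT in it, here as ATTA since it lies on the opposite strand. TAAT is the core that many homeodomain proteins, the family of the LHX5 protein, bind.

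between the Znhit1 and Plod3 starts: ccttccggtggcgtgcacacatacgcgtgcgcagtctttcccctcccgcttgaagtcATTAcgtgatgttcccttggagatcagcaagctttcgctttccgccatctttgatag

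A head-to-head pair is also formed by Col4a1 and Col4a2 on chromosome 8, which encode the chains of the common form of type IV collagen. Their first exons, on opposite strands, share 22 bases (GRCm38.p6, chr8:11312805-11312826, plus strand), shown without capitals because no motif is marked.

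shared by the Col4a1 and Col4a2 first exons: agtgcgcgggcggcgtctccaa

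Of the 49 genes, 40 had a promoter sequence in the table used, with 43 windows of 250 bases before a start. Both strands were searched. TAATTA was present in 4.65% of these windows (Col10a1 and Col11a2) and in 4.84% of all 32851 windows. TAAT, which is contained in TAATTA, was present in 37.2% against 54.9% of all windows. CCAAT stood in 30.2% against 33.8% and TATAAA in 13.95% against 12.4%. GGGCGG, the letters of a GC box, stood in 60.5% of the windows of these genes and in 32.7% of all windows. These are counts of letters and were not tested.

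Before the results, the mutant arrays have to be described as 2 sets. On 35542 probe sets the mean of KO replicates 1 to 10 equalled the mean of KO replicates 11 to 13, to a median absolute difference of 1.33e-06. Over all other ways to split them into 10 and 3 arrays (286 splits in all) that value was at least 0.0561. The level of Xist, on arrays where it exceeded the Y-linked Eif2s3y, was 9.59 to 9.81 in wild type (8 arrays), 9.39 and 9.65 in KO 11 to 13 (2 arrays) and 12.3 to 12.5 in KO 1 to 10 (3 arrays). KO 11 to 13 and wild type were therefore treated as a shared batch, and KO 1 to 10 were given a term of their own in the fit. Whether KO 11 to 13 and wild type were processed together was not tested. Every difference given here equals that between 3 mutant and 12 wild-type arrays, unless an array is left out or another setting is named. KO 1 to 10 add nothing to the direction of these differences. Standard errors, given after ±, come from the fit that holds this term. A fit with genotype alone gave the same differences with smaller errors, and 1801 false calls in simulated data built with such an adjustment, against 9 with the term.

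No collagen or collagen-modifying gene passed an adjusted p below 0.05 in limma with the batch term. Over all clusters 0.0242% did so, or 7 of 28940. At an unadjusted p below 0.05 there were 5 of the 49, Col26a1, Plod3, Col4a2, Col4a3 and Col13a1, all higher in the mutant, where 10.3% of all clusters passed in either direction and 6.2% as higher. With genotype alone, 8 genes had an adjusted p below 0.05, all higher: these 5 and Col4a1, Col15a1 and Plod2. That fit called 16.7% of all clusters, 9.68% as higher. The 8 genes are thus 16.3% of the 49, close to the share of all clusters called in either direction. At an unadjusted p below 0.05 that fit passed 16 of the 49 (32.7%) and 31.2% of all clusters. In a fit of the shared batch alone 0 were called (0.0207% of all clusters).

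Most of the differences were small and positive. Of the 49 genes, 36 (73.5%) were higher in the mutant, with a median difference of 0.11, whereas 51.8% of all clusters were higher, with a median of 0.01. Among the 29 genes whose mean level was above 4.69, the median of all tested clusters, 23 (79.3%) were higher, against 40.3% of all clusters above that level. The lowest difference was that of Col8a1 (-0.30) and the highest that of Col26a1 (0.87). Without Col26a1 and Plod3 the differences lay between -0.30 and 0.39 with a median of 0.09. The 4 genes with a further cluster of their own (Col5a1, Col6a5, Col6a6 and Col20a1) had the same sign in both clusters.

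**Figure D1:**
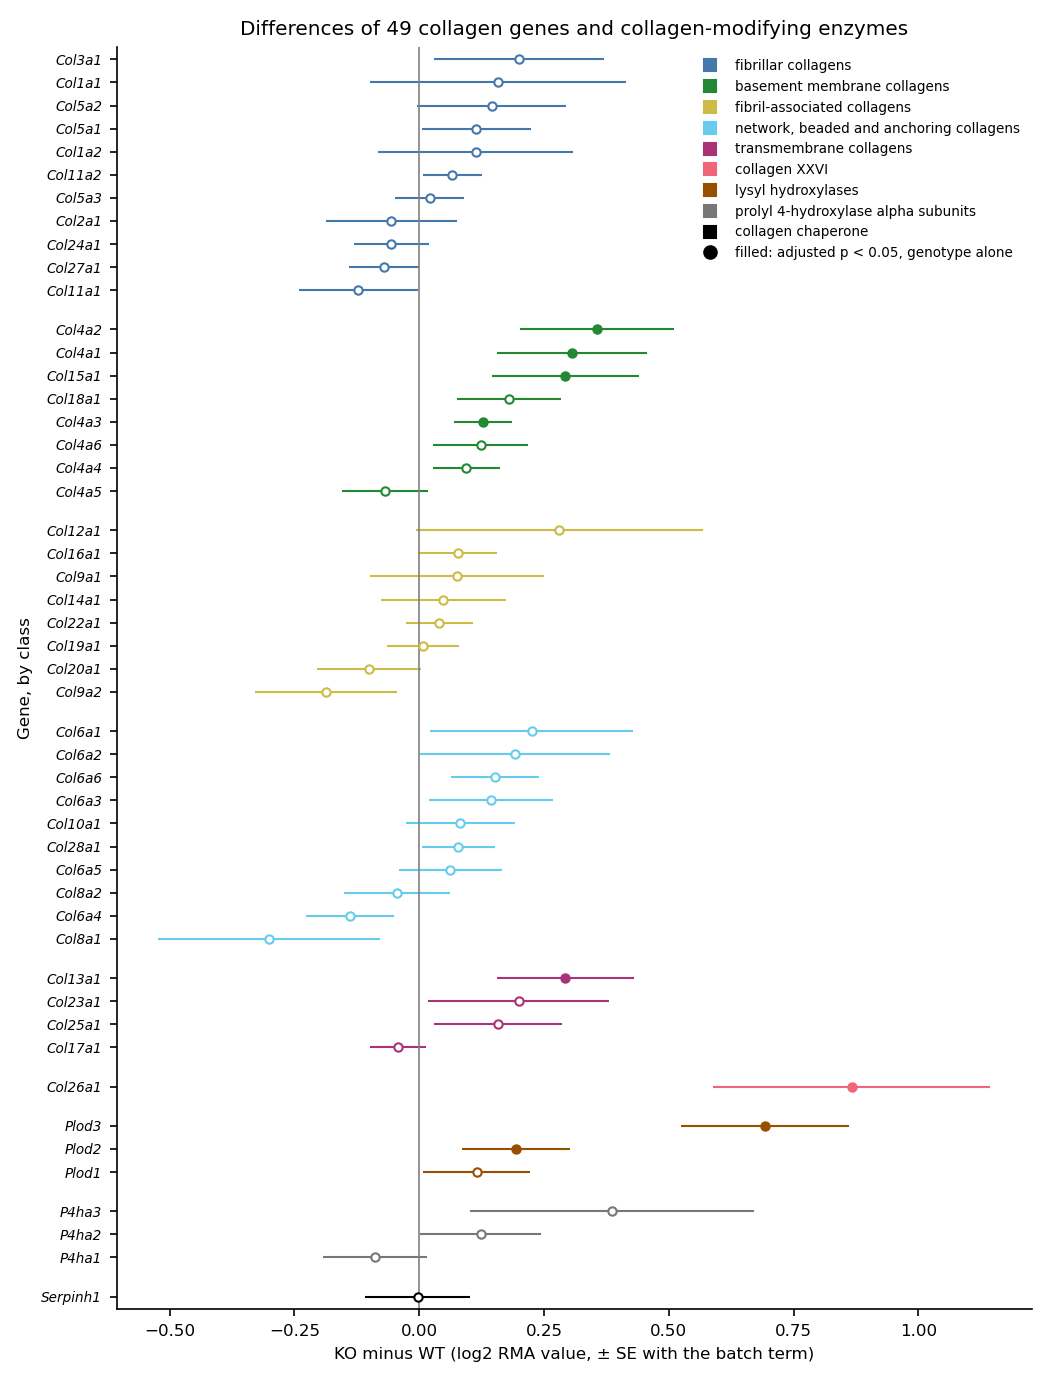
Difference between mutant and wild type (x axis, KO minus WT, log2 RMA value) for each of the 49 genes (y axis, grouped by class), with bars of ± SE from the fit with the batch term; filled points are the 8 genes with an adjusted p below 0.05 with genotype alone. Col26a1 at 0.87 and Plod3 at 0.69 lie to the right of all other genes, which range from -0.30 to 0.39.

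Col26a1 had the largest difference of the 49 genes. In wild type its level was between 8.11 and 9.44, with a median of 9.09. In KO 11, 12 and 13 it was 9.99, 10.18 and 9.49, and in KO 1 to 10 it was between 8.53 and 10.41, with a median of 10.01. All 3 mutant arrays of the shared batch were thus above every wild-type array, by 0.05 in the closest case, and KO 2 (9.39) and KO 3 (8.53) lay among the wild-type levels. No other gene of the 49 showed 3 arrays above every wild-type array, a pattern seen in 0.536% of all clusters. The mean was 9.02 ± 0.37 (SD, n = 12) in wild type and 9.89 ± 0.52 (SD, n = 13) in the mutant. The difference of 0.87 ± 0.28, or 1.82-fold, had a 95% interval from 0.30 to 1.44, an unadjusted p of 0.00441 and an adjusted p of 0.262 in limma (0.00129 with genotype alone). A two-sided exact permutation test within the shared batch gave p = 0.0022, the smallest that its 455 splits allow. Col26a1, under its former name Emid2, is in the authors' own list of genes changed on these arrays. The test uses the same arrays and is no separate support.

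Col26a1 stood apart from the other collagen genes in size. The other 41 had a median difference of 0.08 and reached at most 0.36 (Col4a2), and 30 of them were higher in the mutant. The interval of Col26a1 reaches down to 0.30, within the range of the others, and the difference between Col26a1 and the others was not tested. Its spread was also wide: WT 11, the lowest wild-type array, lay 0.55 below the next.

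The lysyl hydroxylases were higher in the mutant in 3 of 3 cases. Plod3 encodes the lysyl hydroxylase that also transfers sugars to hydroxylysine. In wild type its level was between 7.84 and 8.70, with a median of 8.06. It was 8.69, 9.08 and 8.60 in KO 11, 12 and 13, and between 8.01 and 9.17 in KO 1 to 10, with a median of 8.92. The sets overlapped through WT 3 alone at the top of wild type, at 8.70, since the other 11 wild-type arrays reached at most 8.15. KO 3 at 8.01 was the mutant array within the range of those 11. The difference was 0.69 ± 0.17, or 1.62-fold, with an interval from 0.35 to 1.04 and an adjusted p of 0.138 in limma (0.000119 with genotype alone). Permuting the 15 arrays of the shared batch gave an exact p of 0.0066. Plod3 is likewise in the authors' list of genes changed on these same arrays. Without KO 3 the adjusted p with the batch term was 0.0449 at the same difference, and without KO 13 it was 0.399.

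Plod2, whose enzyme hydroxylates the lysines of the telopeptides used for crosslinks, was between 6.87 and 7.40 in wild type and at 7.51, 7.48 and 7.27 in KO 11, 12 and 13. Here 2 of the 3 mutant arrays were above every wild-type array. The difference was 0.19 ± 0.11, with an adjusted p of 0.560 in limma (0.0439 with genotype alone). Plod1, the remaining lysyl hydroxylase, differed by 0.11 ± 0.11, within the spread of the arrays.

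**Figure D2:**
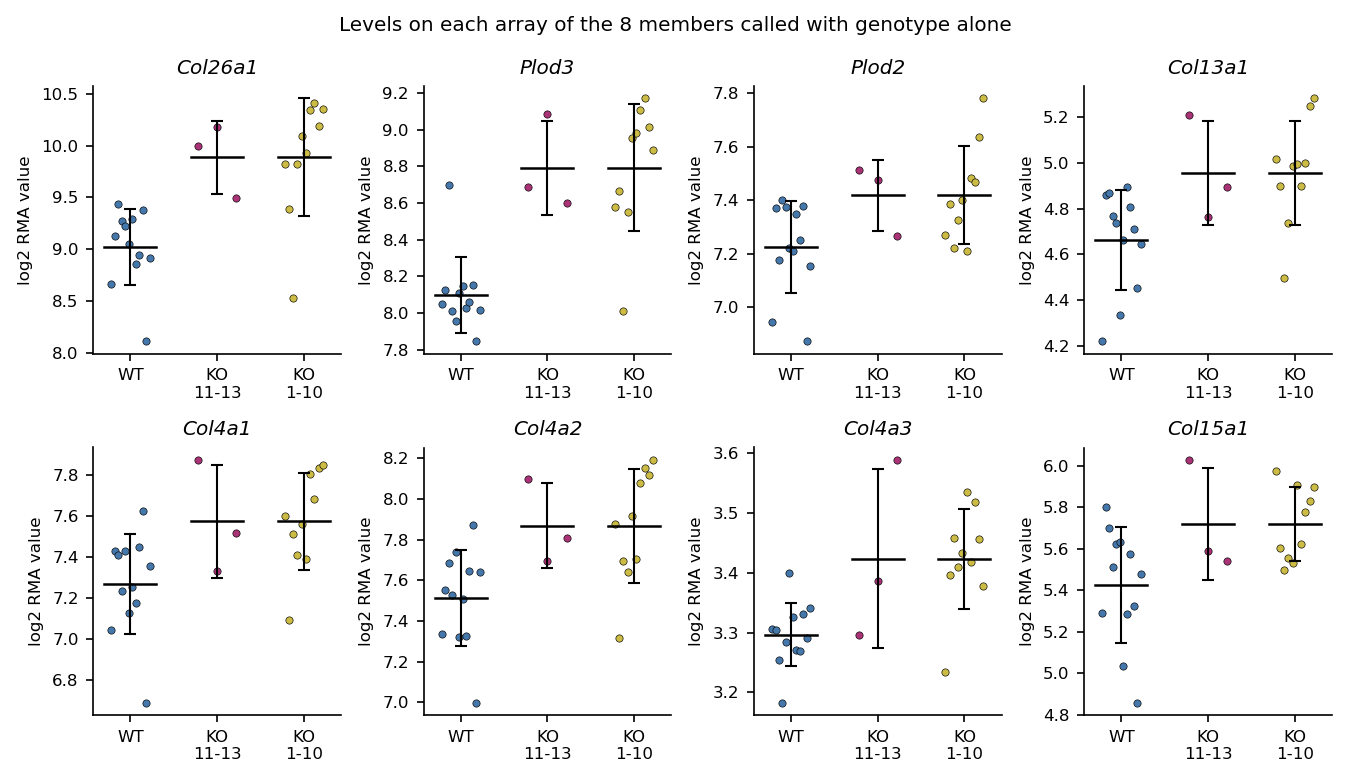
Array levels (y axis, log2 RMA value) of the 8 genes with an adjusted p below 0.05 with genotype alone, for 12 WT arrays, KO replicates 11 to 13 and KO replicates 1 to 10; lines are means and bars SD. The means of both KO sets coincide in every panel, and for Col26a1 the 3 arrays KO 11 to 13 lie above all WT arrays.

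The prolyl 4-hydroxylase subunits and the chaperone did not pass. P4ha3 had the third largest difference of the 49, at 0.39, but with an error of 0.28 and wild-type levels from 5.39 to 6.81, which contain all 3 arrays KO 11 to 13 (6.16, 6.34 and 6.27). P4ha2 differed by 0.12 ± 0.12 and P4ha1 by -0.09 ± 0.10. Serpinh1 was at 8.33 ± 0.18 (SD, n = 12) in wild type and 8.33 ± 0.14 (n = 13) in the mutant, a difference of -0.003 with an interval from -0.22 to 0.21, so that a change of up to about that size could not be seen.

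Among the basement membrane collagens 7 of 8 were higher in the mutant, with a median of 0.15 (0.30 over the 4 above the median level of all clusters). Type IV collagen alpha 2, Col4a2, was between 6.996 and 7.87 in wild type, at 8.10, 7.70 and 7.81 in KO 11, 12 and 13, and between 7.31 and 8.19 in KO 1 to 10. KO 11 lay above all wild-type arrays and the other 2 within their upper range. The difference was 0.36 ± 0.16, with an unadjusted p of 0.0300 and an adjusted p of 0.419 in limma (0.0111 with genotype alone), and the exact permutation p in the shared batch was 0.0440. Its partner Col4a1 was between 6.69 and 7.63 in wild type and at 7.88, 7.33 and 7.52 in KO 11, 12 and 13. The same array, KO 11, was the highest. Its difference was 0.31 ± 0.15 (adjusted p 0.486 in limma, 0.0222 with genotype alone).

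The remaining chains of this class differed less or were dim. Col15a1, whose collagen XV sits at the outer face of basement membranes, differed by 0.29 ± 0.15 (adjusted p 0.500, 0.0257 with genotype alone), with KO 11 at 6.03 above the wild-type range of 4.86 to 5.80 and KO 12 and KO 13 at 5.59 and 5.54. Col18a1, the source of endostatin, differed by 0.18 ± 0.10 (0.0505 with genotype alone), with KO 11, 12 and 13 at 8.22, 8.33 and 8.28, inside a wild-type range of 7.81 to 8.36. Col4a3, a chain of kidney and lung basement membranes, had an unadjusted p of 0.0383 at a difference of 0.13 ± 0.06. Its levels of 3.18 to 3.40 in wild type and 3.30, 3.39 and 3.59 in KO 11, 12 and 13 were among the dim values of the array. Col4a4 differed by 0.09, Col4a6 by 0.12 and Col4a5 by -0.07, all 3 dim.

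The array KO 11 carried much of these values. It was the highest of the 3 mutant arrays of the shared batch in 25 of the 49 genes, and KO 13 was the lowest in 25. Without KO 11 the difference of Col4a2 was 0.24, that of Col4a1 0.16, that of Col15a1 0.14 and that of Col13a1 0.17. The difference of Col4a3 was 0.04 without KO 13. Of the other genes described below, Col3a1 went to 0.06 without KO 11 and 0.32 without KO 13, Col12a1 to 0.13 and 0.47, Col6a6 to 0.0036 and 0.34 and Col23a1 to 0.08 and 0.43. Col25a1 went to 0.07 without KO 12. In all, 18 of the 28 genes examined this way moved by over 1.5 times when 1 of these 3 arrays was left out. Among wild-type arrays WT 11 was the lowest in 17 of the 49 genes and WT 10 the highest in 12.

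Of the transmembrane collagens 3 of 4 were higher, with a median of 0.18. Col13a1, a collagen of cell adhesion sites, was between 4.22 and 4.89 in wild type and at 5.21, 4.76 and 4.90 in KO 11, 12 and 13. KO 13 exceeded the highest wild-type array by less than 0.01, and KO 12 lay within wild type. The difference was 0.29 ± 0.14, with an unadjusted p of 0.0431 and an adjusted p of 0.464 in limma (0.0176 with genotype alone). Col23a1 differed by 0.20 ± 0.18, Col25a1 by 0.16 ± 0.13 and the dim Col17a1 by -0.04.

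Of the fibrillar collagens, the bulk of mesenchymal matrix, 0 of 11 passed an unadjusted p below 0.05. Their median difference was 0.07, with 7 of 11 higher. Col3a1, a collagen of loose and vascular connective tissue, was between 7.54 and 8.23 in wild type and at 8.39, 8.06 and 7.86 in KO 11, 12 and 13. These mutant arrays spread over most of the wild-type range and past it, and the difference was 0.20 ± 0.17 (interval from -0.15 to 0.55). The chains of type I collagen, Col1a1 and Col1a2, differed by 0.16 ± 0.26 and 0.11 ± 0.19. The cartilage and notochord collagen Col2a1 differed by -0.06 ± 0.13, and on KO 12 and KO 13 it lay at 7.93 and 7.18, above and below all wild-type arrays. Col11a2 (0.07 ± 0.06) and Col5a1 (0.11 ± 0.11) had the smallest p of the class beside Col3a1, and the other 5 fibrillar genes lay between -0.12 (Col11a1) and 0.14 (Col5a2).

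The fibril-associated collagens, which sit on the surface of fibrils, had a median difference of 0.04, with 6 of 8 higher and 0 passing an unadjusted p below 0.05. Col12a1 had the largest of these, 0.28 ± 0.29, on wild-type levels from 5.56 to 6.74. Col9a2 differed by -0.19 ± 0.14 and Col16a1 by 0.08 ± 0.08. The other 5 lay between -0.10 (Col20a1) and 0.08 (Col9a1).

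The 10 network and beaded-filament collagens had a median of 0.08, with 7 higher and 0 passing. The beaded-filament collagen VI chains Col6a1 and Col6a2, the 2 of these genes that were not dim, differed by 0.23 ± 0.20 and 0.19 ± 0.19. Col6a6 differed by 0.15 ± 0.09 and Col6a4 by -0.14 ± 0.09. Col8a1, a collagen of the layer beneath endothelium, was between 3.20 and 4.45 in wild type and at 3.64, 3.37 and 3.40 in KO 11, 12 and 13, a difference of -0.30 ± 0.22 with complete overlap. The other 5 lay between -0.04 (Col8a2) and 0.14 (Col6a3).

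Other genes of collagen handling were read from the same fit, and 0 had an adjusted p below 0.05 in limma with the batch term, nor did any folding or processing gene have an unadjusted p below 0.05. The 12 other folding and modification genes, among them the protein disulphide isomerase P4hb (0.04 ± 0.05) and the collagen galactosyltransferase Colgalt1 (-0.01 ± 0.06), had a median of 0.01, with 6 higher and 6 lower. Their largest difference was that of the prolyl 3-hydroxylase P3h2, at 0.40 ± 0.25. Of 13 genes for procollagen processing and crosslinking 10 were higher, with a median of 0.16. The procollagen N-proteinase Adamts14 (0.23 ± 0.12) and the transglutaminase Tgm2 (0.33 ± 0.18) had adjusted p values of 0.031 and 0.044 in limma with genotype alone. They are 2 of the 13, where that fit called 16.7% of all clusters. Of 10 collagen receptors 6 were higher, with a median of 0.13. The integrin gene Itga2 had an unadjusted p below 0.05, at 0.32 ± 0.13, and 1 of 10 is close to the 10.3% of all clusters.

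The laminins and basement membrane partners lay on the side of the type IV collagens, with 11 of 12 higher and a median of 0.23. Nidogen 1 (Nid1), which links laminin to type IV collagen, was between 8.49 and 9.47 in wild type and at 9.76, 9.40 and 9.41 in KO 11, 12 and 13. Its difference of 0.40 ± 0.16 had an unadjusted p of 0.0200 and an adjusted p of 0.367 in limma (0.0066 with genotype alone). The laminin gamma 1 gene Lamc1 differed by 0.31 ± 0.14, with an unadjusted p of 0.0329. Lamb1 (0.28 ± 0.14) and the dim Lama3 (0.13 ± 0.06) had an adjusted p below 0.05 only with genotype alone. That fit called 4 of these 12 genes and 16.7% of all clusters. Agrn was the gene with a lower level, at -0.15 ± 0.14.

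The sampled tissue was described through marker lists. All 10 neuroepithelium markers and all 7 hypothalamus markers were above the median level of all clusters, and Lhx5 itself, whose exons the allele keeps, stood at 7.97 in wild type and 7.92 in the mutant. Of the markers of other tissues, 18 of 19 of cranial mesenchyme and neural crest and 12 of 12 of endothelium were above that level. So were 6 of 6 of erythroid cells, 7 of 10 of surface ectoderm and 4 of 6 of notochord. Over all named genes 10671 of 18820 were above it, so such a count does not show that a tissue was present. Noto, a defining gene of notochord, was dim, at 3.29 in wild type.

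The same lists were compared between genotypes. Mesenchyme markers were higher in 15 of 19 genes (median 0.13), and their mean level per array ran from 6.86 to 7.63 in wild type, from 7.20 to 7.67 in KO 11 to 13 and from 6.87 to 7.84 in KO 1 to 10. Foxc2 was higher by 0.45 ± 0.23 and Dlk1 lower by 0.43 ± 0.24, each with an adjusted p below 0.05 only with genotype alone. Endothelium markers were higher in 12 of 12 (median 0.11), with mean levels of 6.43 to 7.28 in wild type, 7.12 to 7.46 in KO 11 to 13 and 7.06 to 7.45 in KO 1 to 10. The 6.43 was WT 11 alone, and the other wild-type arrays were at 7.07 to 7.28. KO 12 and KO 13, at 7.12 and 7.17, lay within those, and KO 11, at 7.46, above them. Of the endothelium markers Cdh5, the gene of vascular cadherin, differed by 0.29 ± 0.14, Flt1 by 0.32 ± 0.17 and Pecam1 by 0.22 ± 0.12. Each was called only with genotype alone. That fit called 16.7% of all clusters, beside 3 of 12 endothelium and 2 of 19 mesenchyme markers.

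Surface ectoderm markers were higher in 10 of 10 (median 0.24, mean levels 5.04 to 5.62 in wild type and 5.43 to 5.83 in KO 11 to 13), with Esrp1 at 0.60 ± 0.27 and Grhl3 at 0.36 ± 0.16. Erythroid markers were higher in 6 of 6 (median 0.31, mean levels 9.14 to 10.3 in wild type and 9.60 to 10.1 in KO 11 to 13). Notochord markers were higher in 3 of 6 (median 0.05, mean levels 6.13 to 6.39 in wild type and 6.29 to 6.43 in KO 11 to 13). Neuroepithelium markers were lower in 9 of 10 (median -0.14, mean levels 9.31 to 9.98 in wild type and 9.33 to 9.60 in KO 11 to 13), with Sox1 at -0.71 ± 0.32. Hypothalamus markers were lower in 6 of 7 (median -0.33, mean levels 6.65 to 7.44 in wild type and 6.54 to 6.90 in KO 11 to 13), with Rax at -1.27 ± 0.39, Six3 at -1.06 ± 0.29 and Otp at -1.28 ± 0.55. Rax, Six3, Otp, Sox1 and Esrp1 are in the authors' own list of genes changed on these arrays. The counts of the lists that hold them are therefore a description. The part of these tissues in the collagen values was not tested. In such bulk samples more cells of a type and more RNA per cell cannot be told apart.

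**Figure D3:**
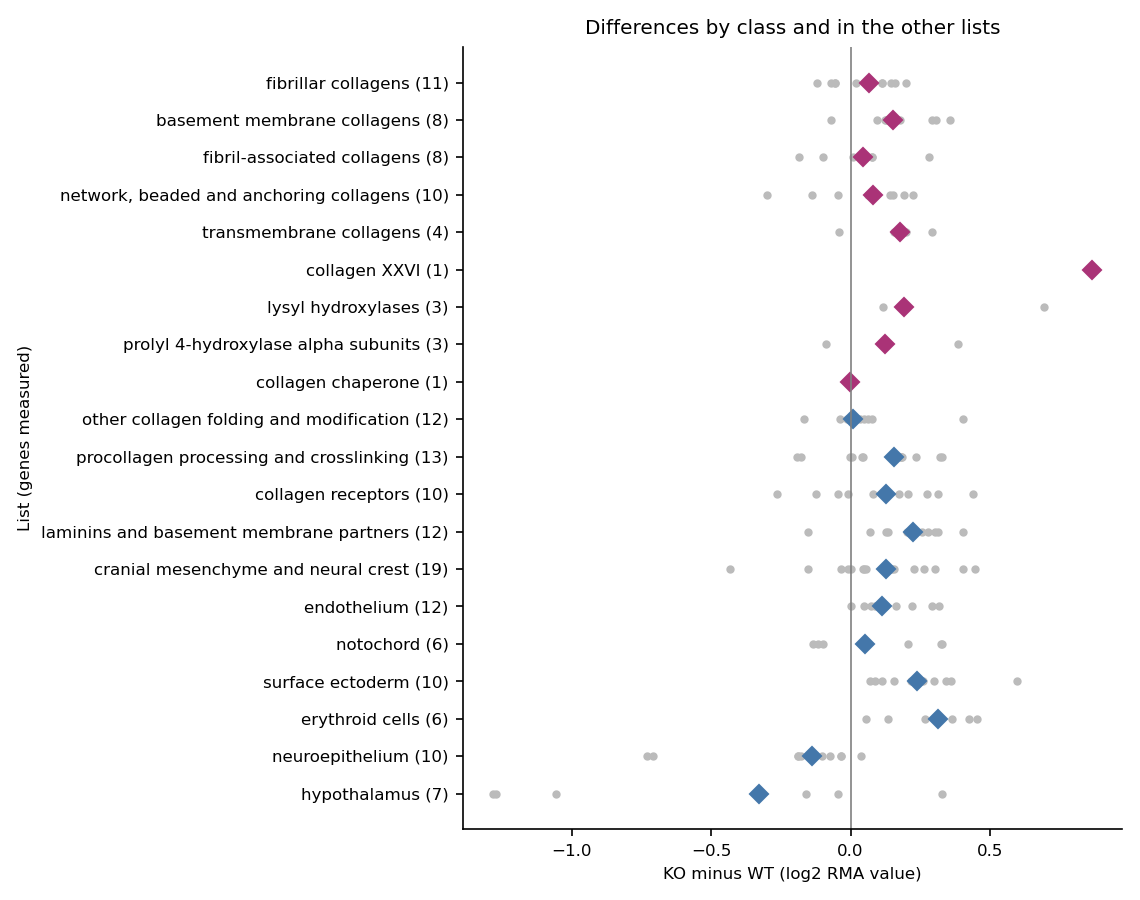
Difference between mutant and wild type (x axis, KO minus WT, log2 RMA value) for every measured gene of each list (y axis, number of genes in brackets); grey points are genes and diamonds medians, purple for the collagen classes and modifying enzymes and blue for the other lists. Medians of the purple groups with more than 1 gene lie between 0.04 and 0.19, beside 0.23 for laminins and partners and -0.33 for hypothalamus markers.

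Within a genotype the levels of several collagens followed each other from array to array. Col4a1 and Col4a2, the pair with the shared 22 bases, had r = 0.97 (rho 0.92) in the 12 wild-type arrays and r = 0.97 (rho 0.92) in KO 1 to 10, with permutation p values of 1e-05 and 2e-05 (0.00016 for both after Benjamini-Hochberg adjustment over 16 relations). A p of 1e-05 is the smallest that 100000 permutations give. The p values of relations, here and below, belong to r (Pearson) and not to rho (Spearman), unless rho is named. Without the 2 arrays farthest from the median, r was 0.91 in both sets. The level of Col4a1 itself ranged over 0.94 in wild type.

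For 3 fibrillar genes the relations were as follows. Col1a1 and Col1a2 had r = 0.84 in wild type and 0.86 in KO 1 to 10 (rho 0.74 and 0.84, adjusted permutation p 0.00296 and 0.00348), and Col3a1 and Col1a2 had r = 0.80 and 0.84 (rho 0.70 and 0.77, adjusted permutation p 0.00348 for both). Without the 2 farthest arrays the 4 values of r were 0.66, 0.73, 0.62 and 0.58. Col2a1 and Col9a1, which are expressed together in cartilage, had r = 0.57 and 0.36 (rho 0.48 and 0.09) with adjusted permutation p values of 0.0675 and 0.31. Serpinh1 and Col1a2 had r = 0.34 and 0.36 (rho 0.06 and 0.28, adjusted permutation p 0.31 for both), and r was -0.37 and -0.05 without the 2 farthest arrays.

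For 2 collagen genes the level was set against markers of cells known to make them. Col1a2 and the mean of the mesenchyme markers had r = 0.84 in wild type and 0.78 in KO 1 to 10 (rho 0.79 and 0.81, adjusted permutation p 0.00296 and 0.0109). Col4a1 and the mean of the endothelium markers had r = 0.85 and 0.73 (rho 0.82 and 0.77, adjusted permutation p 0.00296 and 0.0229). Without the 2 farthest arrays r was 0.70 and 0.75 for the former and 0.64 and 0.49 for the latter. All genes on an array share its RNA and its normalisation, whose part in these values was not tested.

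Col26a1 and Plod3 had r = 0.60 in wild type (rho 0.64, permutation p 0.0751, adjusted 0.0924) and 0.92 in KO 1 to 10 (rho 0.82, permutation p 0.00102, adjusted 0.00296), and 0.57 and 0.81 without the 2 farthest arrays. The adjusted permutation p of rho was 0.0407 in wild type and 0.0159 in KO 1 to 10. In 10 relations chosen after their values were seen, Col26a1 was set against Col1a2 (r = 0.81 and 0.80, rho 0.67 and 0.83, adjusted permutation p 0.0055 for both) and Col4a2 (r = 0.82 and 0.69, rho 0.65 and 0.89, adjusted permutation p 0.0055 and 0.025). For rho the adjusted permutation p was 0.0504 and 0.0231 with Col1a2, and 0.0515 and 0.0113 with Col4a2. Whether these relations differ in strength was not tested. Without the 2 farthest arrays the wild-type values were 0.50 and 0.52, and those of KO 1 to 10 were 0.72 and 0.90.

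**Figure D4:**
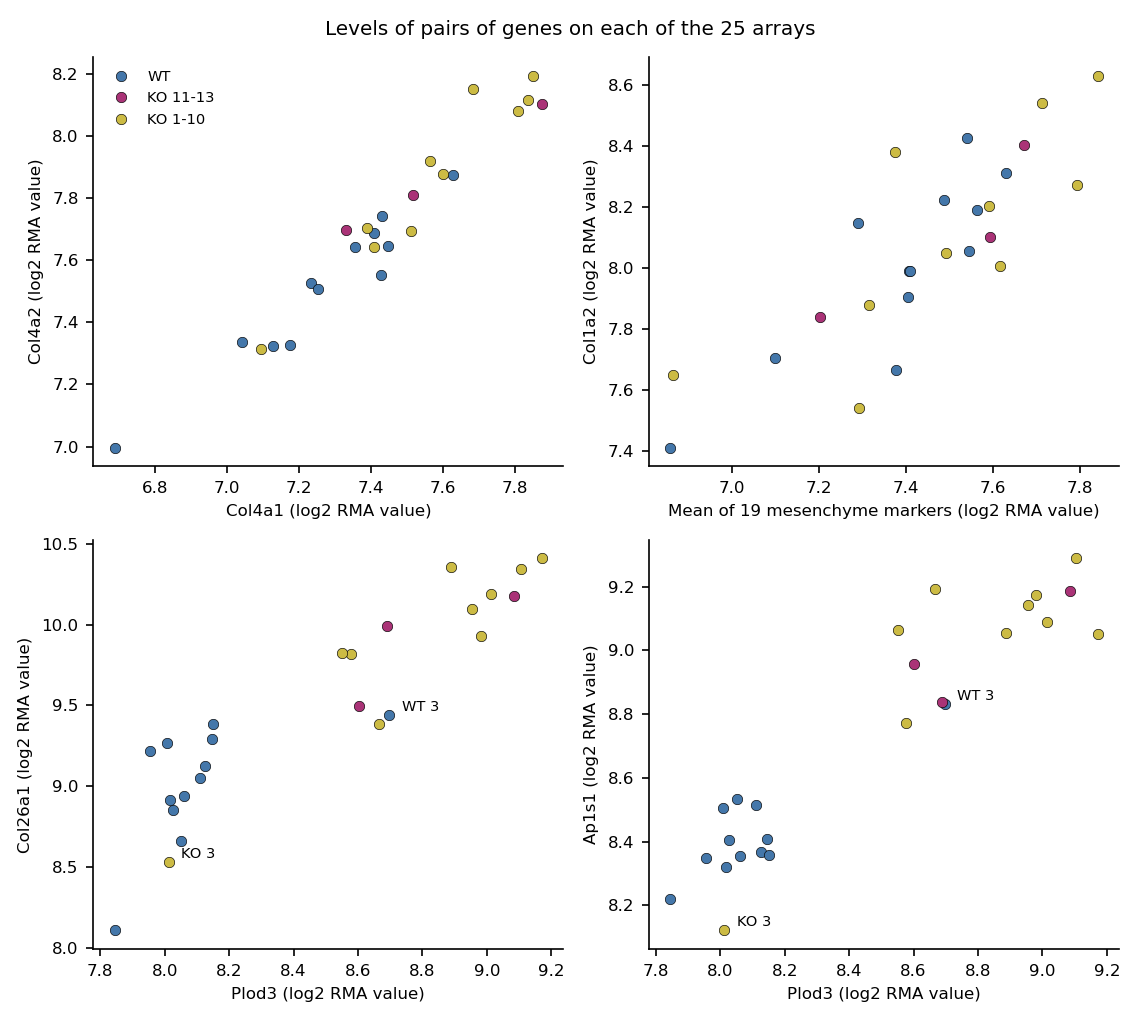
Paired gene levels (both axes, log2 RMA values), with 1 point per array and 25 in all, coloured by WT, KO 11 to 13 and KO 1 to 10. Col4a2 follows Col4a1 along a line and Col1a2 follows the mean of the mesenchyme markers, whereas against Plod3 the labelled array WT 3 lies with the mutant arrays and KO 3 with the wild-type arrays.

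Col26a1 and Plod3 are neighbours. Both lie on chromosome 5, the chromosome of Lhx5, with 191 tested named genes between Lhx5 and Col26a1 and 3 between Col26a1 and Plod3. None of the other 47 genes lies on chromosome 5. In the gene order of the GRCm38.p6 annotation, the 3 tested named genes in between were higher in the mutant as well. These were Ift22, an intraflagellar transport gene, by 0.60 ± 0.14, Fis1, a gene of mitochondrial fission, by 0.38 ± 0.10, and the dim claudin gene Cldn15 by 0.38 ± 0.16. Znhit1, the head-to-head partner of Plod3 shown above, is not in this order and was not read here. The authors' own list of changed genes gives it as higher in the mutant. That list also gives Col26a1 (as Emid2), Plod3 and Ift22 (as Rabl5, at the same 1.52-fold) as higher. Beyond Plod3 followed the dim Vgf (0.09 ± 0.08), the adaptor gene Ap1s1 (0.56 ± 0.15), Trim56 (0.30 ± 0.13) and the dim Muc3 (0.18 ± 0.09). From Col26a1 onwards, 10 consecutive genes of this order, which lacks Znhit1, had a positive difference.

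Over the window from 10 genes before Col26a1 to 10 after Plod3, 25 genes in all, 0 had an adjusted p below 0.05 with the batch term. At an unadjusted p below 0.05 there were 8 higher genes (Myl10, Col26a1, Ift22, Fis1, Cldn15, Plod3, Ap1s1 and Trim56) and 2 lower (Rasa4 at -0.24 ± 0.10 and Srrt at -0.24 ± 0.07). Myl10, Cldn15 and Rasa4 were dim. With genotype alone 9 higher and 2 lower genes had an adjusted p below 0.05, where over all clusters 16.7% were called in that fit and 9.68% as higher. At the unadjusted threshold the shares over all clusters were 10.3% and 6.2%. For Col26a1, Fis1 and Ap1s1 all 3 arrays KO 11 to 13 were above every wild-type array, and for Srrt below, each with an exact permutation p of 0.0022. Ap1s1, for example, was between 8.22 and 8.83 in wild type and at 8.84, 9.19 and 8.96 in KO 11, 12 and 13. The genes of the window were looked at because Col26a1 and Plod3 had the largest differences, so these counts are a description.

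**Figure D5:**
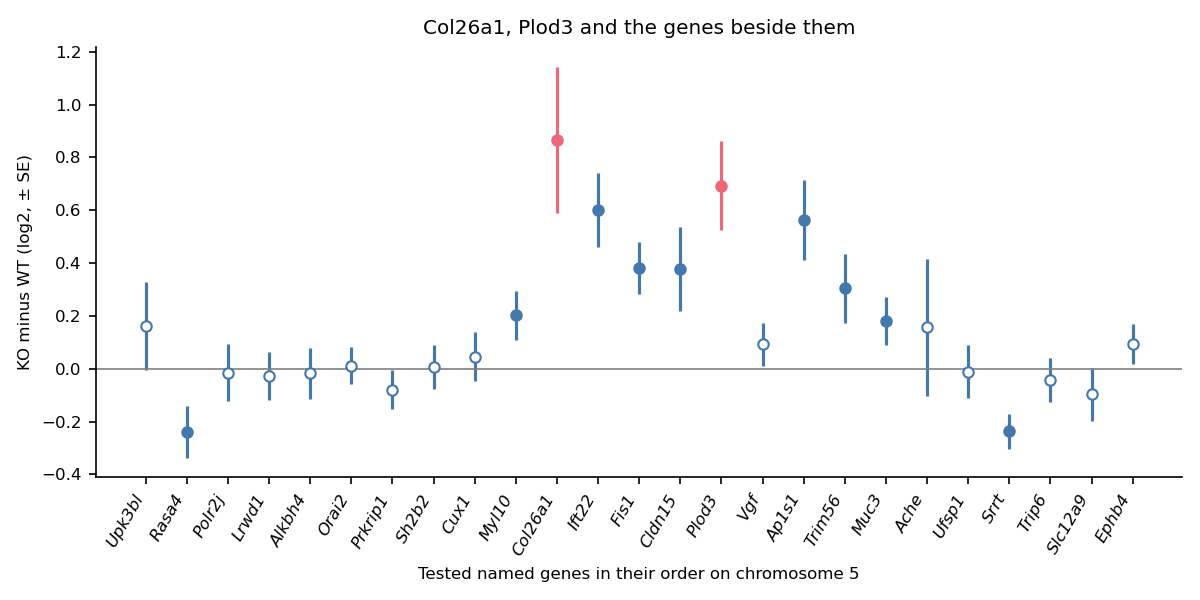
Difference between mutant and wild type (y axis, KO minus WT, log2 RMA value, ± SE with the batch term) of 25 tested genes in their order on chromosome 5 (x axis, order only, not distance); red points are Col26a1 and Plod3, and filled points have an adjusted p below 0.05 with genotype alone. The positive values run from Col26a1 at 0.87 over Ift22 at 0.60 and Plod3 at 0.69 to Ap1s1 at 0.56, while the genes before Myl10 lie between -0.24 and 0.16.

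The same 2 arrays stood at the ends for 8 of the 25 genes, a pattern noticed in the values. It was not counted over all clusters, and whether it is particular to this stretch was not tested. In Col26a1, Ift22, Fis1, Cldn15, Plod3, Ap1s1 and Trim56, and in Cux1 at a difference of 0.05 ± 0.09, WT 3 was the highest wild-type array and KO 3 the lowest mutant array. For Plod3, WT 3 was at 8.70 against at most 8.15 on the other wild-type arrays, and KO 3 at 8.01 against at least 8.55 on the other mutant arrays. Ap1s1 was at 8.83 on WT 3 and at most 8.53 on the others, and at 8.12 on KO 3 and at least 8.77 on the others. Without regard to WT 3, 12 of 13 mutant arrays were above all other wild-type arrays in 6 of the 7 genes other than Cux1, and 6 of 13 in Cldn15. The height of KO 1 to 10 against wild type rests on the adjusted mean, but the place of KO 3 within KO 1 to 10 and of WT 3 within wild type does not.

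Plod3 was also set against 3 of these neighbours, in relations that belong to the 10 chosen after their values were seen, so that their p values are a description. Plod3 and Ap1s1 had r = 0.85 in wild type (rho 0.54, adjusted permutation p 0.00938) and r = 0.04 without WT 3 and WT 11, so that it rested on these 2 arrays together. In KO 1 to 10 r was 0.84 (rho 0.44, adjusted permutation p 0.0121) and 0.54 without KO 3 and KO 4. Plod3 and Ift22 had r = 0.82 and 0.87 (rho 0.59 and 0.78, adjusted permutation p 0.00939 and 0.0055) and 0.40 and 0.67 without the 2 farthest arrays. Plod3 and Fis1 had r = 0.70 and 0.83 (rho 0.61 and 0.55, adjusted permutation p 0.00828 and 0.0104) and 0.38 and 0.61 without them. For rho, the adjusted permutation p of Plod3 with Ap1s1 was 0.0952 in wild type and 0.204 in KO 1 to 10. It was 0.0678 and 0.0375 with Ift22, and 0.0652 and 0.117 with Fis1. In 0 of the other 47 collagen and modifying genes was WT 3 the highest and KO 3 the lowest. Col4a1, for example, was highest in wild type on WT 10, at 7.63, and WT 3 was at 7.41.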

How the data were processed

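Total RNA of 25 samples was hybridised to Mouse Gene 1.1 ST arrays. The authors deposited log2 values made by RMA, and their processing notes name Affymetrix Expression Console 1.0, affy and R 2.7.0. A batch adjustment is not given in the sources used here. Of 35556 probe sets, 6616 without annotation were left out and 28940 tested, 21218 of them with a single symbol (21185 matched to RefSeq, GRCm38.p6, by Entrez number). In 11 columns the deposited log2 values were mixed with other, misprinted ones. The 14 cells above 14 were set missing, 0 of them in the clusters of these genes. The brightest single-symbol cluster stood for each gene. Array medians ran from 4.64 to 4.76.

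Clusters were tested in limma 3.58.1 under R 4.3.3, two-sided, with genotype and a term for KO replicates 1 to 10. Benjamini-Hochberg adjusted p values, computed over the whole set of clusters, were called below 0.05. For single genes all 455 splits of the shared batch were enumerated (exact permutation test, two-sided). Correlations were tested, two-sided, with 100000 permutations. In simulated data the fit found 82 of 100 genes made 1.5-fold different and 94 of 100 made 2-fold different. The simulated clusters varied independently of each other, and on the real arrays 7 of 28940 clusters were called. Plod3 at 1.62-fold and Col26a1 at 1.82-fold were not, so these shares need not hold for the real arrays.

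Genes were named by a rule: Col26a1, Plod3, those called in either fit or at an unadjusted p below 0.05, up to 3 more per class by smallest p, and those whose 3 arrays all lay above or below wild type. The genes and lists were chosen with earlier results of these data known. Some listed genes were not analysed here. Alternatives were genotype alone, the shared batch alone, a replicate block, array weights, limma-trend, no moderation, other normalisations and filters, and each array left out.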

Additional observations from a re-analysis of the deposited data

Results flagged for a closer look

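Single arrays stood far from the others of KO replicates 1 to 10 in 5 of 72 genes examined, judged by the gap to the nearest array over the whole range (Dixon's ratio, whose 95% limit chance passes in about 5% of groups). For Ap1s1 the ratio was 0.557, with KO 3 lowest at 8.12 and the next at 8.77. For Trim56 it was 0.557 too, again with KO 3 lowest, at 6.18 against 6.74. Both are genes beside Plod3. For Col10a1 it was 0.595, with KO 2 at 3.30 against 3.69, for Col5a3 0.520, with KO 5 at 3.37 against 3.57, and for Col4a3 0.477, with KO 1 at 3.23 against 3.38. These 3 collagen genes are dim.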

How the results depend on the processing

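No gene of the 49 was called with the batch term, in the shared batch alone, or when any array was left out except KO 3 (0 to 1 called, the 1 being Plod3), and 8 were called with genotype alone. The 5 genes at an unadjusted p below 0.05 became 9 with array weights, 8 with a repeated quantile normalisation, 16 with genotype alone, and 3 (without KO 11) to 8 (without KO 13) when an array was left out. Col26a1 ranged from 0.72 to 1.06 and Plod3 from 0.55 to 0.79 over the arrays left out (adjusted p down to 0.0449 for Plod3, without KO 3), and with genotype alone they stood at 0.87 and 0.69, both called. With dim clusters left out the medians were 0.30 for basement membrane and 0.21 for network, beaded and anchoring collagens. The sign of Serpinh1 turned with a repeated quantile normalisation (0.0073) and over the arrays left out (-0.040 to 0.021), and that of Col16a1 over the arrays left out (-0.0092 to 0.13, lowest without KO 12). The cause was not tested.

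Replicate numbers were checked as a pairing. Same-numbered arrays correlated between -0.33 and 0.43 over 12 numbers, above 0.1 in 4 and best with their own partner in 0. These values cannot show whether same-numbered samples shared a litter or a day, which the labels do not give. Under a replicate block with genotype alone, 8 genes were called, 6 of them among the 8 called with genotype alone (Col4a3 and Col15a1 were not, whereas Col6a6, higher, and Col6a4, lower, were), and 15 had an unadjusted p below 0.05, with Col26a1 at 0.90 and Plod3 at 0.71. With the block and the batch term 0 were called and 11 had an unadjusted p below 0.05. In that fit a difference rests only on KO 11 against WT 11 and KO 12 against WT 12. WT 11 was the lowest wild-type array in 17 of the 49 genes. Medians under that block were 1.57 for collagen XXVI, 0.48 for lysyl hydroxylases, 0.37 for transmembrane collagens, 0.21 for the chaperone, 0.60 for mesenchyme markers, 0.53 for endothelium markers, 0.16 for other folding genes and 0.33 for processing genes. Signs turned under it for Col11a2 (-0.11), Col4a4 (-0.0591), P4ha1 (0.022) and Serpinh1 (0.21).

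The 3 mutant arrays of the shared batch limit every direction given, and 20 of the 49 genes were dim. A gene not called is not shown to be unchanged.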
